A study of Mus musculus with 4 samples.

Results

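In unstimulated M1 cells, an established line of mouse myeloid leukemia, 824 genomic regions held a called peak of both Bach1 and Bach2 and none of Mafk. They were chosen by the peak calls themselves: the deposited peaks of the 3 factors were merged wherever they shared at least 1 bp, and a region was taken if it held at least 1 Bach1 peak, at least 1 Bach2 peak and no Mafk peak. The mitochondrial genome and the replication-dependent histone gene clusters of chromosome 13 were left out, which removed 47 of 871 such regions, all 47 of them in the histone span. The 824 are 15.2% of the 5410 merged regions, and they contained 827 of 3873 Bach1 peaks (21.4%) and 830 of 1385 Bach2 peaks (59.9%). The totals of all merged regions and of all peaks, here and below, still include the parts left out. Another 297 regions carried peaks of all 3 factors, so that 73.5% of the regions with both Bach factors lacked a Mafk call.

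Each factor was mapped by chromatin immunoprecipitation and sequencing (ChIP-seq) in 1 library of the same unstimulated cells, with antibodies made in-house for Bach1 (A1-6) and Bach2 (Bach2N2). The Mafk library was made with a purchased antibody to NF-E2 p18, which is Mafk, and input DNA was sequenced without antibody. M1 is a single transformed line, and no genotype or treatment differs between the libraries. With 1 library per factor there is no replicate error, each factor was seen by a single antibody, and whether a Bach antibody also recognises the other Bach protein was not tested. The lists do not give the sequencing depth, which is unknown. The input library was not used here on its own.

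Bach1 and Bach2 are related transcription factors with a basic leucine zipper that mostly repress their targets. They bind DNA as heterodimers with the small Maf proteins Mafk, Maff and Mafg, at Maf recognition elements, whose core resembles the site of the AP-1 factors. Bach1 is known for the heme-sensitive control of heme oxygenase and other iron and antioxidant genes, and Bach2 for its roles in B cells and in alveolar macrophages. Maff and Mafg were not mapped here, and whether the Mafk antibody also recognises them was not tested.

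The strength of a peak is given below by the fold enrichment, the ratio of the ChIP signal at the summit to the local control, and by the pileup, the number of overlapping fragments there. For each factor the strongest peak of a region was used. The 824 regions had a median Bach1 fold enrichment of 6.76 (quartiles 4.79 to 9.85, range 1.78 to 28.3) with a median pileup of 76 fragments. Their median Bach2 fold enrichment was 4.43 (3.53 to 5.61, range 1.62 to 14.1), with a median pileup of 64 fragments. Pileups ran from 21 to 326 fragments for Bach1 and from 26 to 350 for Bach2.

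Beside them, all 3873 Bach1 peaks had a median fold enrichment of 4.66 and all 1385 Bach2 peaks one of 4.42. The Bach1 value of the 824 regions lay between the 4.05 of the 2577 regions with Bach1 alone and the 12.2 of the 297 regions with all 3 factors. For Bach2 the order was the same, with a median of 3.52 in the 201 regions with Bach2 alone and 5.54 with all 3 factors. A Bach1 fold enrichment of at least 10 was reached in 199 of the 824 regions (24.2%), compared with 11.7% of all Bach1 peaks. A Bach2 fold enrichment of at least 6 was reached in 176 (21.4%), compared with 23.8% of all Bach2 peaks. In the 297 regions with all 3 factors the shares were higher, 61.6% for Bach1 and 43.4% for Bach2. They were lower in regions with Bach1 alone (2.41%) and with Bach2 alone (3.48%). Both limits were passed by 105 of the 824 regions (12.7%), a share that was not computed for other classes. The calls that chose the regions come from the same signals, so these levels are a description and were not tested.

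The strengths of both Bach factors went together across the 824 regions, with a Spearman rho of 0.579 in fold enrichment and 0.598 in pileup. Across the 297 regions with all 3 factors, which reach higher values, rho was 0.827 in fold enrichment. These correlations run across sites of the same pair of libraries, which share the local control: the control background implied by the Bach1 peak and by the Bach2 peak ranked almost identically (rho 0.979). That background also had a rho of -0.532 with Bach1 fold enrichment, of which it is the denominator.

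**Figure D1:**
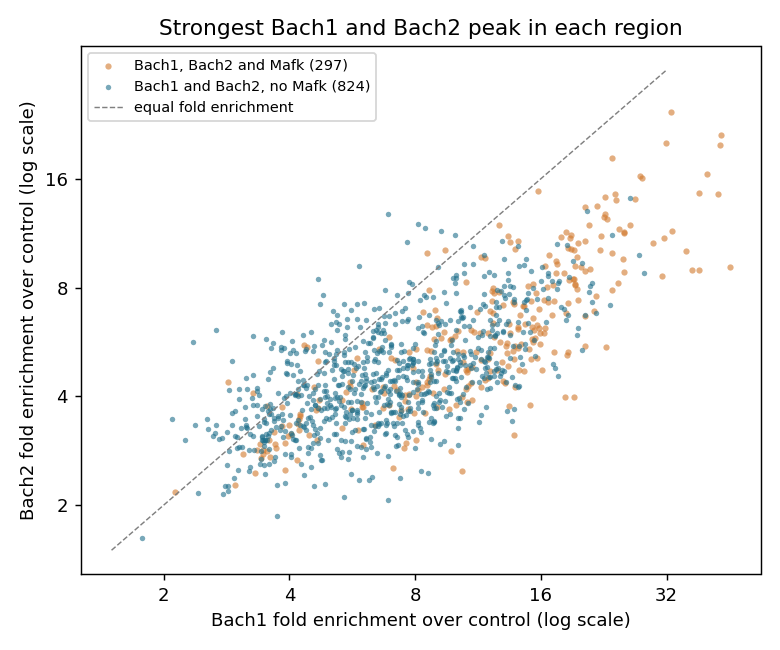
Bach2 against Bach1 fold enrichment over the control (log axes) for each region, with the 824 regions without a Mafk peak in blue, the 297 regions with all 3 factors in orange and a dashed line of equal values. The blue points reach 28.3 for Bach1 and 14.1 for Bach2, and the orange points extend further in both.

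Within bands of Bach1 fold enrichment, the Bach2 fold enrichment was of similar size with and without a Mafk peak. Among regions with a Bach1 fold enrichment of 10 to 15, the median Bach2 value was 5.51 in 155 regions without Mafk (quartiles 4.69 to 7.07) and 5.51 in 78 regions with Mafk (4.74 to 6.86). From 6 to 8 it was 4.42 (3.62 to 5.32, 183 regions) without Mafk and 4.03 (3.60 to 4.27, 25 regions) with Mafk. At 15 or more it was 7.92 (6.66 to 8.79, 44 regions) and 8.92 (6.87 to 11.3, 105 regions). The quartile ranges overlapped in all 6 bands of Bach1 strength. The classes were spread differently over the bands, as the calls that chose them allow: those without a Mafk peak made up 83.9% of the regions with both Bach factors below a Bach1 fold enrichment of 4, 88.0% from 6 to 8, 66.5% from 10 to 15 and 29.5% at 15 or more.

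**Figure D2:**
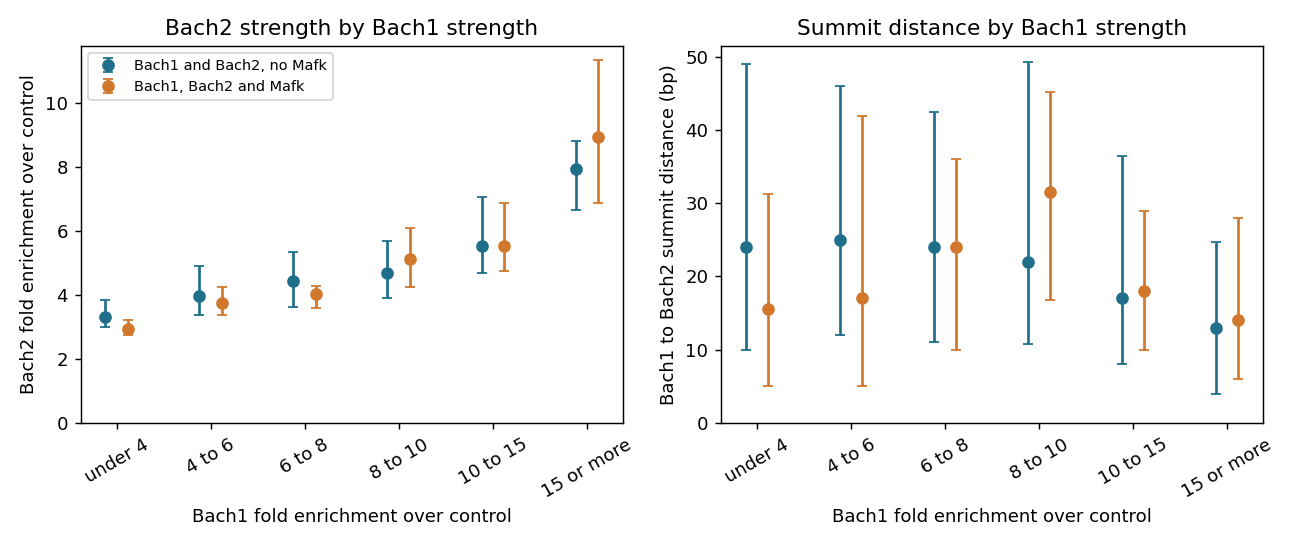
Median Bach2 fold enrichment (left) and median distance between the nearest Bach1 and Bach2 summits in bp (right) within 6 bands of Bach1 fold enrichment, with bars from the lower to the upper quartile over regions, for regions without Mafk (blue) and with Mafk (orange). The Bach2 medians climb from 3.31 to 7.92 without Mafk and from 2.92 to 8.92 with Mafk, and the bars of both classes overlap in every band.

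The strongest of the 824 regions, ranked by the geometric mean of both fold enrichments, was chr13:36294741-36295409 (mm9). It had a Bach1 fold enrichment of 26.2 with 189 fragments and a Bach2 fold enrichment of 14.1, the highest Bach2 value of the class, with 129 fragments, and its summits lay 17 bp apart. The region chr19:41529365-41529998 followed, with 20.7 for Bach1 and 13.05 for Bach2. The highest Bach1 value of the class, 28.3, belonged to chr4:132180063-132180755, where Bach2 had 8.80. At chr11:35965608-35966148 Bach1 reached 27.4 and Bach2 9.83, and a Mafk peak lay 6751 bp away. At chr1:188112959-188113456 the values were 23.7 for Bach1 and 11.2 for Bach2.

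The other members of the leading 10 were chr1:92726695-92727233, chr7:64784875-64785556, chr2:128029519-128030372, chr10:110815096-110815623 and chr7:73622357-73622850. Their Bach1 fold enrichment ran from 17.5 to 21.2 and that of Bach2 from 8.24 to 10.6. The leading 10 had summits 1 to 77 bp apart, and their control background ran from 1.00 to 2.64 times the lowest of the Bach1 list, beside a median of 2.47 in the class. No gene names or base sequences are given for these sites, because the sequence and gene tables used here describe another genome build than mm9.

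The log2 ratio of Bach1 to Bach2 fold enrichment had a median of 0.62 (quartiles 0.17 to 1.03), against 0.96 (0.63 to 1.33) in the 297 regions with Mafk. The scale of this ratio depends on antibody and depth, so only differences between regions can be read from it. It varied with the control background of the site: among the 824 regions the median was 0.92 in the 206 with the lowest background and 0.34 in the 206 with the highest. Between the same sets the Bach1 median fell from 10.1 to 4.75 and the Bach2 median from 5.13 to 3.46 in fold enrichment, while pileup went up from 60 to 97 fragments for Bach1 and from 42 to 90.5 for Bach2. The part of the background in the ratio was not tested.

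Single sites departed far from this balance. The ratio was highest at chr8:10448525-10449021, where Bach1 had a fold enrichment of 13.7 (81 fragments) and Bach2 3.41 (33 fragments), a log2 ratio of 2.0. It was nearly as high at chr10:61528930-61529461 (1.95), chr10:11001821-11002706 (1.90) and chr14:35003522-35004055 (1.90). At the opposite end, chr19:12509483-12509899 had 2.35 for Bach1 (37 fragments) and 5.66 for Bach2 (86 fragments), a log2 ratio of -1.27. At chr16:45058834-45061262 the ratio was -1.19, but the summits there were 1329 bp apart, the largest distance of the class. At chr4:32993569-32994015 the ratio was -0.89, with 6.89 for Bach1 (63 fragments), near the median of the class, and 12.8 for Bach2 (184 fragments), among its high values. At chr19:34595802-34596222 it was -0.85.

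Most of the 824 regions consisted of a single pair of peaks: 816 (99.0%) held 1 Bach1 and 1 Bach2 peak. Of these 816, the Bach2 peak lay wholly inside the Bach1 peak in 525 (64.3%) and the reverse was true in 81 (9.93%). In the regions with all 3 factors the Bach2 peak lay inside the Bach1 peak in 259 of 296 (87.5%). The median length of the 824 regions was 447.5 bp (quartiles 385 to 525), and their Bach1 and Bach2 peaks shared a median of 325 bp.

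The nearest Bach1 and Bach2 summits were a median of 22 bp apart (quartiles 10 to 43). Summits lay within 10 bp in 225 of the 824 regions (27.3%), within 50 bp in 662 (80.3%) and within 100 bp in 779 (94.5%). The offset went to both sides along the chromosome, with the Bach2 summit at the higher coordinate in 417 regions, at the lower in 403 and at the same base in 4. Over the bands of Bach1 strength the median was 24, 25, 24, 22, 17 and 13 bp, lowest at the strongest sites. In regions with Mafk the median was 18 bp over all 297, and from the weakest to the strongest band of Bach1 it was 15.5, 17, 24, 31.5, 18 and 14 bp, with no steady course. Between 8 and 10 the 31.5 bp stood beside 22 bp without Mafk. Over the 297, summits lay within 10 bp in 32.3%, within 50 bp in 88.6% and within 100 bp in 98.7%, each a higher share than without Mafk. An overlap of the peaks was required, so short distances are in part set by the choice of regions.

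**Figure D3:**
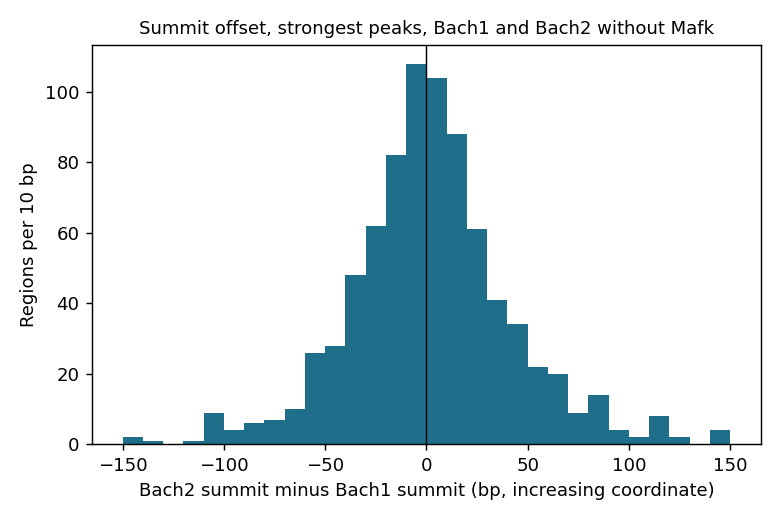
Number of the 824 regions (y axis, per 10 bp) by the position of the Bach2 summit minus that of the Bach1 summit (x axis, bp), taking the strongest peak of each factor. The highest bars stand next to 0, and 80.3% of the nearest summit pairs are within 50 bp; 17 regions lie beyond 150 bp and are not drawn.

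How much Mafk signal a region could hold without a call was computed from its control background. The background at the Bach1 summit was brought to the scale of the Mafk list by the ratio seen at 395 sites with both peaks (median 1.29, quartiles 1.26 to 1.31), and the smallest pileup was sought that reaches the weakest peak of the Mafk list by a recomputed Poisson p. A Mafk peak would have been called from a median fold enrichment of 2.44 (quartiles 2.19 to 2.73, range 1.36 to 3.23), or a median of 34 fragments. Taking the 1st percentile of the Mafk list as the limit moved the median to 2.72. Mafk signal below these values cannot be told from no signal in the 824 regions. In the 297 regions with a Mafk peak the called fold enrichment had a median of 4.25 (range 2.02 to 17.3), and all 297 values lay at or above the limit computed for their own site; the limit was set from the weakest of the called peaks.

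The limit was set beside the Bach1 signal. In the 44 regions without Mafk at a Bach1 fold enrichment of 15 or more, the limit ran from 2.15 to 3.13 (median 3.02). In the 105 regions with a Mafk peak in the same band, Mafk had a median of 4.91 and a range of 2.94 to 17.3, and 2 of the 105 were below 3.02. With the 1st percentile as the limit the median was 3.45, and 7 of the 105 were below it. The 105 were chosen by a Mafk call and the limit comes from the weakest call, so few values below it follow from that choice. These counts cannot show whether Mafk was absent from the 44 regions. These 44 sites carried Bach2 fold enrichments of 4.54 to 14.1.

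**Figure D4:**
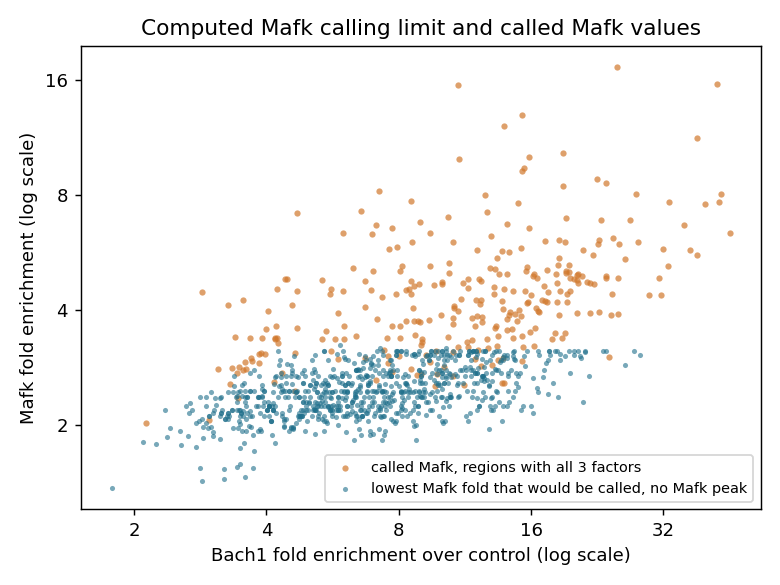
Mafk fold enrichment (y axis, log) against Bach1 fold enrichment (x axis, log): the lowest value that would have been called in each of the 824 regions without a Mafk peak (blue) and the called values in the 297 regions with one (orange). The blue limits run from 1.36 to 3.23, and the orange values reach 17.3.

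Few of the 824 regions had a Mafk peak in their neighbourhood. A Mafk peak lay within 1 kb of 2 of them, within 10 kb of 31 (3.76%) and within 50 kb of 106 (12.9%). Regions with Bach1 alone had similar shares, 3.41% within 10 kb and 13.9% within 50 kb. In regions with Bach2 alone the shares were lower, 1.49% (3 of 201) and 10.9%. The region nearest to Mafk was chr2:62524064-62524512 (5.64 for Bach1, 3.66 for Bach2), which lay 384 bp from a Mafk peak and 152 bp from a region with all 3 factors. That neighbour, chr2:62523213-62523912, had the weakest Mafk peak of its class by recomputed p, with a fold enrichment of 2.52 and 38 fragments. The next nearest were chr8:122749652-122750069 (586 bp), chr5:92557615-92558085 (1189 bp) and chr19:5848050-5848508 (1637 bp).

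The regions just inside and just outside the rule had the following values. The fewest bp shared by a Bach1 and a Bach2 peak were 62, at chr1:132916060-132916477, where Bach1 had a fold enrichment of 2.83 and Bach2 3.19. Next came chr4:125780325-125780722 with 160 bp, chr2:164466719-164467063 with 171 bp and chr9:62358280-62358588 with 179 bp. By recomputed p, the weakest Bach1 peak of the class was the 2.35 at chr19:12509483-12509899, and the weakest Bach2 peak was at chr4:62145923-62146361, with a fold enrichment of 2.68 (33 fragments). Outside the rule, the Mafk peaks that shared the least with the rest of their region were at chr11:19937793-19938111 (195 bp, Mafk 4.54), chr8:14889948-14890323 (219 bp, 3.64), chr4:14825866-14826376 (223 bp, 4.23) and chr6:116674441-116675043 (223 bp, 3.89). No region with all 3 factors was kept out by an overlap with Mafk of fewer than 195 bp. Among regions with Bach1 alone, the peak with the strongest recomputed p was at chr4:136604378-136604877, with a fold enrichment of 14.7 and 267 fragments.

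The 824 regions lay on chromosomes 1 to 19 and X. Chromosome 11 had the most, 73 (8.86% of the class, against 6.95% of all merged regions), followed by chromosome 2 with 60 and chromosome 1 with 58. Chromosome 3 held 38, or 4.61%, beside 7.12% of all merged regions, and 23 of the regions with all 3 factors. Of the Bach2 peaks, which every region of the class needs, chromosome 3 had 5.34% and chromosome 11 had 7.73%. Their shares of the Bach1 peaks were 6.58% and 7.33%. Among regions with both Bach factors, the share without Mafk ran from 62.3% on chromosome 3 to 85.4% on chromosome 14, where 35 regions lacked and 6 had a Mafk peak.

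**Figure D5:**
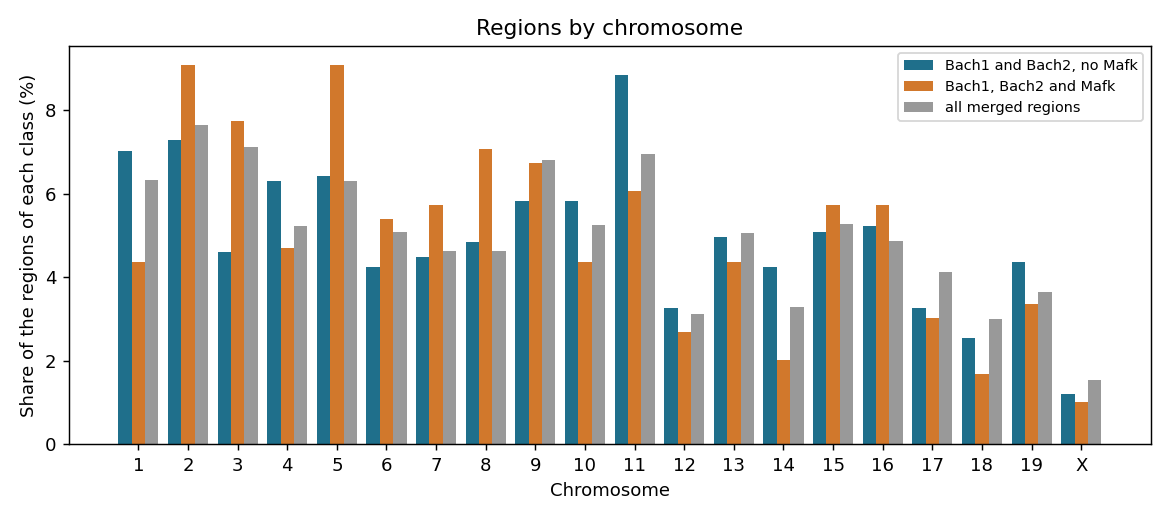
Share of the regions of each class (y axis, percent) on each chromosome (x axis) for the 824 regions without Mafk (blue), the 297 with all 3 factors (orange) and all 5410 merged regions (grey). The blue bar is tallest on chromosome 11, at 8.86%, and chromosome 3 has 4.61% beside 7.74% for the orange bar.

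Most of the regions stood alone: 703 had no other of the 824 within 50 kb, and 121 fell into 54 groups, of which 48 were pairs. The largest group held 6 regions at chr3:96023793-96074205. Its Bach1 fold enrichments ran from 3.13 to 4.90 and those of Bach2 from 3.46 to 4.68, and the log2 ratio of Bach1 to Bach2 ran from -0.38 to 0.28, below the class median of 0.62 in all 6. A group of 5 lay at chr11:87239989-87285739, with Bach1 between 7.90 and 10.1 and Bach2 between 2.48 and 3.39. A group of 4 lay at chr11:101488486-101520515, with Bach1 between 6.32 and 8.74 and Bach2 between 2.07 and 3.05. As in almost all of the 54 groups, none of these spans held a Mafk peak. Whether they contain genes or sequences in several copies, as the histone clusters left out on chromosome 13 do, was not tested, for want of mm9 annotation, so these counts may not stand for separate unique sites.

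These 3 groups were alike in the length of their regions. All 15 regions were longer than 1000 bp, from 1016 to 2634 bp, and they made up 15 of the 31 regions of at least 1000 bp among the 824. In both groups on chromosome 11 every log2 ratio of Bach1 to Bach2 was above the class median of 0.62, from 1.29 to 1.78 in the first and from 1.40 to 1.73 in the second. The control background at the 15 regions had a median of 5.28 times the lowest, against 2.43 in the 793 regions under 1000 bp. Within the group of 5 the pileup varied little, from 124 to 154 fragments for Bach1 and from 55 to 80 for Bach2. Without the 15 regions, 64 of 809 (7.91%) were on chromosome 11 and 32 (3.96%) on chromosome 3. A further group of 4, at chr4:132085190-132180755, had short regions, a background of 1.15 to 1.68 times the lowest, and the highest Bach1 value of the class at its end, 28.3, beside 6.75 to 7.37 at its other 3 sites.

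Over 2 peaks were found in 8 of the 824 regions, 3 of them in the group on chromosome 3. The region chr3:96049129-96051762 was the longest of the class, 2634 bp, and held the most, 2 Bach1 and 2 Bach2 peaks. The region chr3:96072557-96074205 had 2 Bach1 peaks over 1649 bp. The other long regions by the rule were chr16:45058834-45061262 (2429 bp) and chr14:21297749-21299375 (1627 bp), each with 1 peak of each factor. On chromosome 11, 2 Bach2 peaks beside 1 Bach1 peak were found at 101488486 to 101489604, 75273645 to 75274983 and 55010618 to 55011613.

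The control background at the 824 regions had a median of 2.47 times the lowest of the Bach1 list, the same as the 2.47 of the regions with all 3 factors. It was 5 times the lowest or more at 62 regions (7.52%), and at 32 of the 297 with all 3 factors (10.8%). The 95th percentile was 5.61 times the lowest in the 824 and 10.2 in the 297. The highest background, 34.0 times the lowest, was at chr1:194289921-194290195, where 253 Bach1 and 309 Bach2 fragments gave fold enrichments of only 1.78 and 1.62. At chr8:125949770-125950779, chr8:125957504-125958385 and chr4:87700979-87701227 the background was 25.6, 23.4 and 21.6 times the lowest, with Bach1 fold enrichments of 2.86, 3.21 and 3.58. At 45 regions the background was within 1% of the lowest. Several of them had the same value to the digits kept, so the order among those is not informative. Of the 45, the 4 named were chrX:6885406-6885669, chr7:88111516-88111927, chr1:37766538-37766883 and chr1:187142852-187143956. Their Bach1 fold enrichments were 4.25 (21 fragments), 7.34 (37 fragments), 5.98 (30 fragments) and 10.6 (54 fragments).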

How the data were processed

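Per the submitters' processing notes, the tools were MACS2 2.1.0, BWA 0.7.10 and CASAVA 1.8 and the build was mm9. The settings are not given in the sources used here. Paired ends of 51 bases were read, per the labels. Each deposited list holds the peaks of 1 library, and the peak names carry a q threshold of 0.01. Pileup, as deposited, is a signal that counts overlapping fragments at the summit, and the deposited fold enrichment is a ratio to the local control, both as the authors' peak caller gave them. Coordinates are counted from 1.

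Peaks were merged with Python 3.11.15 and pandas 2.3.3. The control background was computed as (pileup + 1) / fold enrichment - 1, with the pseudocount of 1 that MACS2 uses, and a Poisson p from both (SciPy 1.17.1). The merging was tested on simulated data. Fold enrichments from different lists are set side by side without a common scale. Shares over regions cover these libraries only.

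The members, lists and rules were chosen with earlier results of these data known. Regions named were the 10 with the highest geometric mean of both fold enrichments. Also named were the 4 at each extreme of the ratio of Bach1 to Bach2 and of the background. Further rules took the 4 longest, the 4 with the most peaks, the 4 nearest to Mafk and the 4 with the fewest shared bp. The 4 largest groups were named too, and the 4 regions with all 3 factors whose Mafk peak shared the fewest bp. The regions with the weakest peaks, and the strongest with Bach1 alone, were chosen after their values were seen. Motifs and gene lists need mm9 sequence and annotation and were not run.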

Additional observations from a re-analysis of the deposited data

How the results depend on the processing

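Of 29 alternative values, 26 stayed within 1.5 times the main count, within the 95% order-statistic interval of the median, or within 0.1 of the correlation. That interval is taken over regions of 1 library per factor and does not measure error between libraries. The alternatives without the 3 dense groups of long regions were chosen after seeing the data, and all 5 were among the 26. Leaving out 15 of 824 regions could not move a count past 1.5 times. The mean over all peaks of a region could hardly differ either, as 816 of 824 regions held 1 peak of each factor. The 26 therefore include alternatives with little room to differ. With a fold enrichment of at least 4 required of both factors, 482 regions were left of 824, since the stricter limit removes weak peaks. Other rules for shared peaks, for the absence of Mafk, for the histone span and for high background gave 762 to 871 regions. The Mafk calling limit moved from 2.44 to 2.72 when the 1st percentile of the list stood for its weakest peak. With a spacing of at most 10 kb, 53 regions fell into groups, against 121 at 50 kb. With 1 library a factor, there were no replicates to pair or to leave out. A site near the threshold of 1 library can be missed in another, so the absence of a Mafk peak is a statement about the list.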

Other observations

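One further site of the class stood beside strong regions of all 3 factors. At chr8:77617280-77617749 Bach1 had a fold enrichment of 8.22 (105 fragments) and Bach2 3.27 (58 fragments), with summits 71 bp apart. A region with all 3 factors lay 3121 bp away, and the Mafk calling limit computed for the site was 2.33. In the whole class, 9 of 824 regions (1.09%) lay within 10 kb of a region with all 3 factors and 27 (3.28%) within 50 kb. This site was picked with its values known.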
